A study of Homo sapiens with 9 samples.

Results

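The genes described here encode the machinery and the enzymes of the peroxisome. They are 41 genes of the 60880 gene IDs in each count table, taken from a list of peroxins, peroxisomal membrane proteins and peroxisomal enzymes and matched by symbol to Ensembl IDs. All 41 were found under 1 ID each. By role, 12 are biogenesis genes (PEX genes, or peroxins), 5 encode membrane transporters and channels, and 24 encode enzymes. RNA was sequenced from SNU5, an established human gastric carcinoma line, after 24 h with 8 μg/mL of the antibody ramucirumab, which binds the receptor VEGFR2. In the NR group the antibody was linked through polyethylene glycol to gold nanorods (AuNR-PEG-Ab), in the SP group it was linked in the same way to gold nanospheres (AuSP-PEG-Ab), and in the Ab group it was given free. Each group had 3 libraries. All 3 groups thus received the antibody, and the contrast of NR or SP with Ab joins the gold core and the linker into 1 difference. Cells given gold without antibody, or nothing, were not analysed here.

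Peroxisomes are small organelles bounded by a single membrane that make and destroy hydrogen peroxide, shorten very long and branched fatty acids and carry out the first steps of ether lipid synthesis. Their enzymes are made in the cytosol, bound there by soluble receptors that read a short targeting signal, and pulled across the membrane by the peroxins. Membrane proteins enter by a separate set of peroxins, and organelles multiply by growth and division.

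Sequencing depth ranged from 19566064 to 26318227 counts for the Ab libraries, from 20601906 to 22914759 for SP and from 13863155 to 25735410 for NR, whose replicate 2 was the shallowest of all. Mitochondrial genes took 4.36% to 4.66% of the counts in NR and SP libraries and 3.41% to 3.71% in Ab libraries. Of 6 epithelial markers, the keratin gene KRT8 was the most abundant, with 26242 to 47765 counts in gold-treated libraries and 13029 to 16763 in Ab, whereas KRT19 had 0 or 1 count in every library and CDH1, which encodes E-cadherin, had 5 to 9 counts in Ab against 79 to 159 in NR and SP. The summed level of the 6 was 913.6 ± 34.3 CPM in Ab (SD, n = 3; CPM puts the counts of all libraries on a common total), 2250 ± 17.0 in NR and 2324 ± 55.2 in SP. Among leukocyte markers, LYZ was at 0 throughout, PTPRC had at most 1 count and CD3E at most 2. The 4 fibroblast markers, led by COL1A1, summed to 34.6 ± 14.2 CPM in Ab, 57.9 ± 2.39 in NR and 65.1 ± 2.58 in SP, with DCN at 7 to 21 counts in Ab and 280 to 518 in the others. COL1A2 stood the other way, with 198, 278 and 33 counts in Ab, 37, 0 and 0 in NR and 49, 49 and 43 in SP, a difference that did not pass with either. PDGFRA had 60, 72 and 45 counts in Ab, 58, 0 and 0 in NR and 65, 50 and 66 in SP, and did not pass either. The endothelial genes CDH5 and VWF together stood at 4.16 ± 0.848 CPM in Ab, 22.4 ± 1.17 in NR and 22.4 ± 1.62 in SP. These shifts ran between the same groups as the results below, and their part in them was not tested. Whether the Ab and the gold-treated libraries came from the same cell population was not tested either, so a difference of treatment and a difference of cells between them cannot be told apart in any gold-against-Ab value given here. In bulk RNA, more cells of a type and more RNA per cell cannot be told apart.

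With gold-bound antibody, many enzyme and membrane genes of the peroxisome rose, by up to 9.74-fold (EPHX2), though most enzymes tested changed by less than 2-fold. Of the 12 listed peroxins, 4 rose and 1 fell with NR, and 7 rose and 1 fell with SP, all by less than 2-fold. Every value here comes from edgeR's quasi-likelihood test on 6 libraries with Benjamini-Hochberg adjustment over all genes tested, where a gene passed when its adjusted p did not exceed 0.05 and was called when it also changed at least 2-fold. In NR against Ab, 37 of the 41 genes had enough counts to be tested, of which 23 rose and 3 fell, where 72.7% of all genes tested passed, 36.4% rising and 36.4% falling. In SP against Ab, 39 were tested, of which 28 rose and 3 fell, where 73.0% of all genes passed, 36.4% rising and 36.6% falling. The share that passed was near that of all genes, and 23 of the 26 that passed with NR and 28 of the 31 with SP were rises. At 2-fold, 7 were called higher and 0 lower with NR, beside 12.4% and 10.3% of all genes (22.7% in either direction). With NR, 6 were called higher when every library had to hold 10 counts and 5 when glmTreat tested against 2-fold. PXMP2, called in both comparisons, and NUDT7 and DDO, called with SP, entered the test through their gold-treated libraries. Such genes had to be higher there to be counted. With SP, 10 were called higher and 0 lower, beside 12.6% and 10.6% (23.2% in either direction), and 5 were called higher when every library had to hold 10 counts and 6 when glmTreat tested against 2-fold. The libraries of NR lay wholly above those of Ab for 24 of the 37 genes and wholly below for 3, where all genes gave 37.1% and 37.5%. The libraries of SP lay wholly above for 29 of 39 and below for 3, where all genes gave 37.4% and 37.8%. The median log2 fold change was 0.39 with NR and 0.44 with SP, against -0.0055 and -0.0067 over all genes tested. The 3 Ab libraries serve in both of these comparisons, whose counts are therefore not independent of each other.

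**Figure D1:**
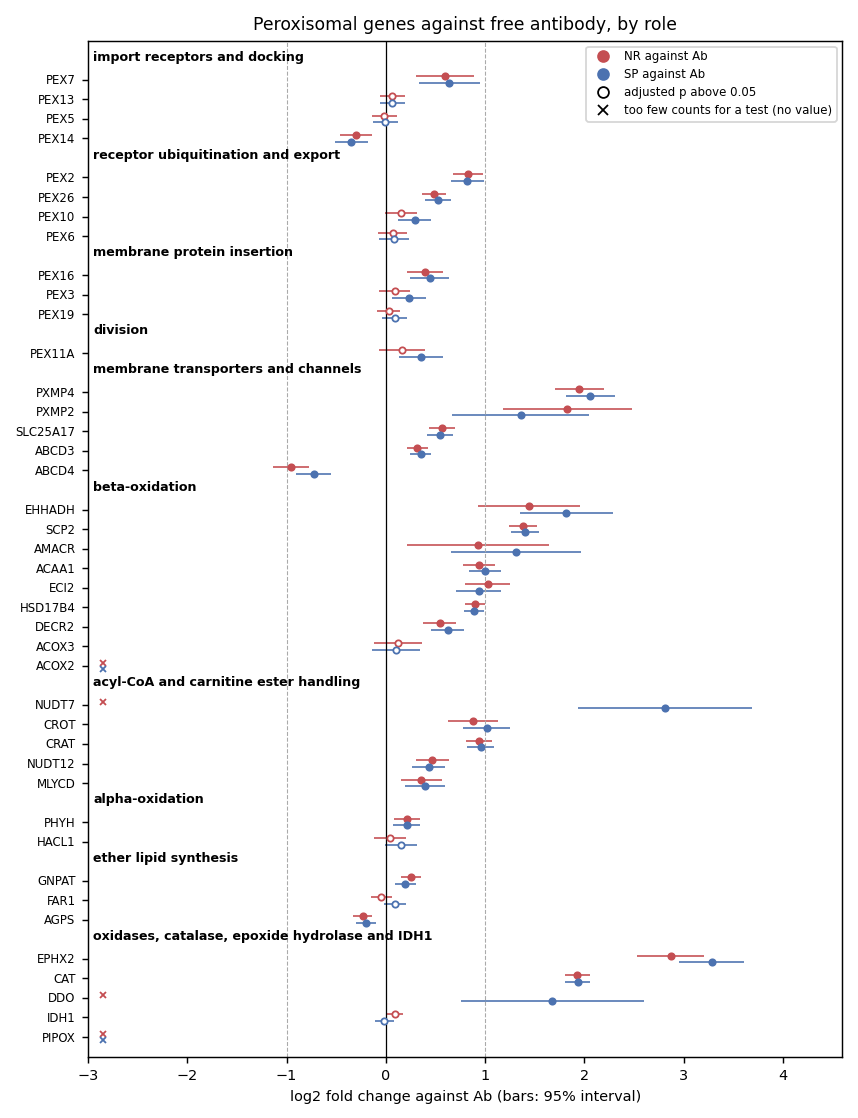
Log2 fold change of each gene against Ab (x axis; dashed lines at 2-fold) by role, with NR in red, SP in blue and bars for the 95% interval. Filled points passed the adjusted p, open points did not, and crosses at the left edge mark comparisons with too few counts for a test and stand for no value. EPHX2, NUDT7, PXMP4 and CAT reach furthest to the right, while no peroxin passes the dashed lines.

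Organelle machinery and enzymes are set side by side here by class, with no test of the difference between classes. Of the 12 peroxins, 4 rose, 1 fell and 7 did not pass with NR, and 7 rose, 1 fell and 4 did not pass with SP, so that 41.7% and 66.7% passed where all genes gave 72.7% and 73.0%. None of the 12 was called at 2-fold in either comparison, and their largest rise was 0.83 on the log2 scale (PEX2). Of the 24 enzymes, 20 were tested with NR, of which 15 rose and 1 fell, and 22 with SP, of which 17 rose and 1 fell, so that 16 of 20 and 18 of 22 passed. Called enzymes, all higher, numbered 5 of 20 with NR (where 12.4% of all genes were called higher) and 8 of 22 with SP (where all genes gave 12.6%). NUDT7 and DDO, among the 8, had 8 or fewer counts in every Ab library and entered the test through their gold-treated libraries, so the 8 is no support for a class difference. The median log2 fold change was 0.12 over the peroxins and 0.71 over the enzymes with NR, and 0.26 and 0.91 with SP. The peroxin median with NR was 0.19 with upper quartile factors and 0.18 without Ab replicate 1. Over the 20 enzymes tested in both comparisons the medians were 0.71 and 0.75, and over those with at least 10 counts in every library 0.52 and 0.60. The 5 membrane genes had medians of 0.56 and 0.55, and 4 of them rose and 1 fell in each comparison. These class medians describe the lists and carry no test.

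An enzyme, a membrane gene and a peroxin serve as examples of the 3 classes, chosen after their values were seen: CAT, which encodes catalase, PXMP4, a membrane protein gene, and PEX5, which encodes the main import receptor. CAT stood at 26.7, 26.1 and 23.4 CPM in the 3 Ab libraries, at 93.7, 98.8 and 97.5 in NR and at 95.8, 97.1 and 96.7 in SP. Every gold-treated library was thus above 3 times any Ab library, and the NR and SP values interleaved. The fitted change was 1.93 ± 0.063 (SE) with NR, an adjusted p of 7.8e-21, and 1.93 ± 0.065 with SP, an adjusted p of 3.8e-20. PXMP4 went from 4.78, 5.67 and 3.83 CPM in Ab to 17.0, 18.9 and 19.9 in NR and 17.7, 21.2 and 20.9 in SP, again with no overlap. PEX5 was at 39.9, 40.7 and 40.1 CPM in Ab, 39.7, 41.9 and 37.8 in NR and 39.7, 40.8 and 39.0 in SP, so the 3 groups overlapped. Its fitted changes of -0.01 and -0.01 log2 had 95% intervals of -0.14 to 0.11 and -0.13 to 0.12. The 250 bases before the start of each of these genes are printed below from RefSeq (GRCh38.p14), to set the control regions of the strongly and the hardly changed genes side by side. In GRCh37 the genes themselves lie at chr11:34460481-34493607 (CAT, ENSG00000121691), chr20:32290564-32308125 (PXMP4, ENSG00000101417) and chr12:7341281-7371170 (PEX5, ENSG00000139197). The printed windows lie at chr11:34438684-34438933 on the plus strand for CAT, chr20:33720311-33720560 on the minus strand for PXMP4 and chr12:7188403-7188652 on the plus strand for PEX5, each written 5′ to 3′ in the direction of transcription. Capitals mark matches, on either strand, to the motifs named after them.
CAT: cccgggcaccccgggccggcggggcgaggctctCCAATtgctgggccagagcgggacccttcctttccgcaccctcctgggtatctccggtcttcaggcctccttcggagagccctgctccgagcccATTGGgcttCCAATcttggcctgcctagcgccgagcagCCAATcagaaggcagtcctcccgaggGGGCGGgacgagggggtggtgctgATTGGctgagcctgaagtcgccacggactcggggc
PXMP4: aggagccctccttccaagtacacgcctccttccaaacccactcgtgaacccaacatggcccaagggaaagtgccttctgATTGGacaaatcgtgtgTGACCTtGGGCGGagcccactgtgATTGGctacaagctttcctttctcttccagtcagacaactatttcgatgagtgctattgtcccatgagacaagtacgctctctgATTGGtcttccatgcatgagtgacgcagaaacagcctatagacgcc
PEX5: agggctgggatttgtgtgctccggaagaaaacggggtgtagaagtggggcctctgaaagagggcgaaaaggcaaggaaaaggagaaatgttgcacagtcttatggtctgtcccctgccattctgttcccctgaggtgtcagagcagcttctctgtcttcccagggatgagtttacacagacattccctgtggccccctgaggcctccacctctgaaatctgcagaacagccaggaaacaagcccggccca

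For comparison, 7 motifs were searched in these windows, chosen after the expression values were seen, and the entries of 32 of the 41 genes were found in the RefSeq promoter table. The capitals are CCAAT (the CCAAT box, also read as ATTGG on the other strand), GGGCGG (the GC box) and AGGTCA (the half-site of nuclear receptors, TGACCT on the other strand). CAT had 5 CCAAT boxes and 1 GC box, PXMP4 had 3 CCAAT boxes, 1 GC box and 1 half-site, and PEX5 had none of the motifs in its window. The CCAAT box was in 14 of the 32 windows (43.8%), against 32.0% of all 35116 windows in the table, and the GC box was in 23 (71.9%), against 42.6%. The sets are unlike, since the 32 hold 1 window per gene. All windows were neither reduced in that way nor limited to genes expressed in these cells. The differences in share were not tested. By class, 4 of 10 peroxins and 7 of 17 enzymes held a CCAAT box, and 6 of 10 and 12 of 17 a GC box. The half-site was in 9.38% of the 32 windows and 12.1% of all, the E-box CACGTG in 6.25% and 6.34%, TGACNNNGC (the core of the antioxidant response element) in 12.5% and 10.9%, and TGACGTCA (the cAMP response element) in 3.12% and 1.65%. Half-sites in direct repeat with 1 base between them, the element read by the PPAR receptors of lipid metabolism, occurred in 0 of the 32 windows and in 0.0171% of all. None of the motif strings overlapped another in the printed windows, and a match or its absence in 250 bases says nothing of binding.

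Per exon length, the genes spanned a wide range of levels. Averaged over the 9 libraries, they ran from 0.0274 to 44.1 RPKM (CPM per kilobase of exon), with a median of 5.30. The highest were IDH1 (44.1), which encodes the cytosolic and peroxisomal isocitrate dehydrogenase that makes NADPH, GNPAT (28.8), the first enzyme of ether lipid synthesis, CAT (20.4), ABCD3 (17.7), a transporter of fatty acyl-CoA into the organelle, and PEX19 (13.0), the chaperone of new membrane proteins. IDH1 and GNPAT held the first and second place in all 3 groups. CAT was 14th in Ab, with 7.09 ± 0.491 RPKM (SD, n = 3), and 3rd in NR (27.0 ± 0.729) and SP (27.0 ± 0.179). SCP2, a thiolase gene, went from 19th (4.52 ± 0.549 RPKM) to 6th (11.8 ± 0.608 in NR and 11.9 ± 0.334 in SP). The peroxins lay in a narrower band, from 1.65 to 13.0 RPKM. Lengths count every annotated exon once, which understates the level of genes with many isoforms such as HSD17B4, whose exons cover 24901 bases.

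Among the import receptors and docking proteins, 1 receptor of the pair passed the test and the other did not. PEX7, the receptor for the rarer amino-terminal signal, was at 3.85, 4.41 and 4.16 CPM in Ab, 6.07, 6.16 and 6.61 in NR and 6.31, 7.54 and 5.41 in SP. All gold-treated libraries exceeded all Ab libraries, and PEX7 rose by 0.60 ± 0.15 log2 with NR (adjusted p = 0.00092) and by 0.64 ± 0.16 with SP (adjusted p = 0.00065), while PEX5 stayed within the spread given above. Of the docking proteins that receive the loaded receptor at the membrane, PEX14 was lower in gold-treated cells, with 16.5, 17.3 and 17.7 CPM in NR and 16.8, 15.4 and 17.4 in SP against 20.4, 21.8 and 21.3 in Ab. It was the only peroxin of the 12 to fall, by 0.30 ± 0.083 log2 with NR (adjusted p = 0.0020) and 0.35 ± 0.085 with SP (adjusted p = 0.00058). Its partner PEX13 did not pass, with log2 fold changes of 0.06 and 0.06. PEX13 is named here, like each gene outside the naming rule, after its values were seen.

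The peroxins that recycle the receptor gave the largest rise of the machinery. PEX2, a ring-finger ubiquitin ligase that marks the receptor for export, was at 17.5, 16.6 and 16.5 CPM in Ab, 31.3, 30.0 and 27.9 in NR and 31.4, 26.4 and 31.2 in SP, with no overlap. It rose 1.77-fold in both comparisons, by 0.83 ± 0.079 log2 with NR (adjusted p = 2.6e-10) and 0.82 ± 0.084 with SP (adjusted p = 1.2e-09). Its partner ligase PEX10 did not pass with NR (0.15, adjusted p = 0.10) and rose by 0.29 with SP (adjusted p = 0.0031), and RER1 on the opposite strand overlaps 39.1% of its exon bases. PEX26, the membrane anchor of the export ATPase, rose by 0.48 and 0.53, whereas the ATPase subunit PEX6 passed in neither comparison (0.07 and 0.08).

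Of the peroxins that insert membrane proteins, PEX16 rose and PEX19 did not pass. PEX16, the receptor that docks new membrane proteins, was at 12.4, 13.2 and 12.9 CPM in Ab, 16.9, 16.8 and 17.0 in NR and 20.1, 16.6 and 15.4 in SP, and rose by 0.39 ± 0.092 log2 (adjusted p = 0.00040) and 0.44 ± 0.10 (adjusted p = 0.00034). PEX19 was at 55.7 to 57.8 CPM in Ab, 55.4 to 59.9 in NR and 57.0 to 65.5 in SP, which overlapped. PEX3, its docking partner, had log2 fold changes of 0.09 with NR, which did not pass, and 0.23 with SP (adjusted p = 0.017). With SP, PEX3 did not pass without SP replicate 3 (adjusted p = 0.16) or Ab replicate 1 (adjusted p = 0.086). PEX11A, a membrane-shaping protein of organelle division, was at 11.3, 8.81 and 9.88 CPM in Ab, 11.0, 12.1 and 10.3 in NR and 13.8, 11.9 and 12.3 in SP. It did not pass with NR (0.16, adjusted p = 0.21) and rose by 0.35 ± 0.11 with SP (adjusted p = 0.0064). Without Ab replicate 2, the rise of PEX11A with SP did not pass (adjusted p = 0.067). PEX3, PEX10 and PEX11A thus passed with SP and not with NR, but the direct comparison of NR with SP passed for none of them (adjusted p of 0.48, 0.47 and 0.46).

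The membrane transporters and channels changed in both directions. PXMP4, whose values stand above, rose by 1.95 ± 0.13 log2 with NR (3.86-fold, adjusted p = 6.5e-14) and 2.06 ± 0.13 with SP (4.17-fold, adjusted p = 3.2e-14). PXMP2, which forms a pore for small metabolites, had 8, 16 and 7 counts in Ab, 43, 27 and 23 in NR and 29, 28 and 22 in SP. Its changes of 1.83 ± 0.33 (adjusted p = 1.7e-05) and 1.36 ± 0.35 (adjusted p = 0.0012) rest on these low counts. SLC25A17, the carrier of coenzyme A and other cofactors, rose by 0.56 and 0.55. ABCD3 was at 106, 122 and 118 CPM in Ab, 147, 145 and 139 in NR and 144, 147 and 149 in SP. The groups did not overlap, and it rose by 0.32 ± 0.053 (adjusted p = 4.9e-06) and 0.35 ± 0.054 (adjusted p = 1.4e-06). ABCD4 fell from 24.2, 24.7 and 20.9 CPM in Ab to 12.0, 11.8 and 12.3 in NR and 13.9 to 14.1 in SP. Its protein, a relative of the peroxisomal ABC transporters, is known to sit in lysosomes, where it releases cobalamin. The fall was 0.95 ± 0.092 log2 with NR (adjusted p = 3.1e-10), just short of 2-fold, and 0.73 ± 0.088 with SP (adjusted p = 3.0e-08).

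**Figure D2:**
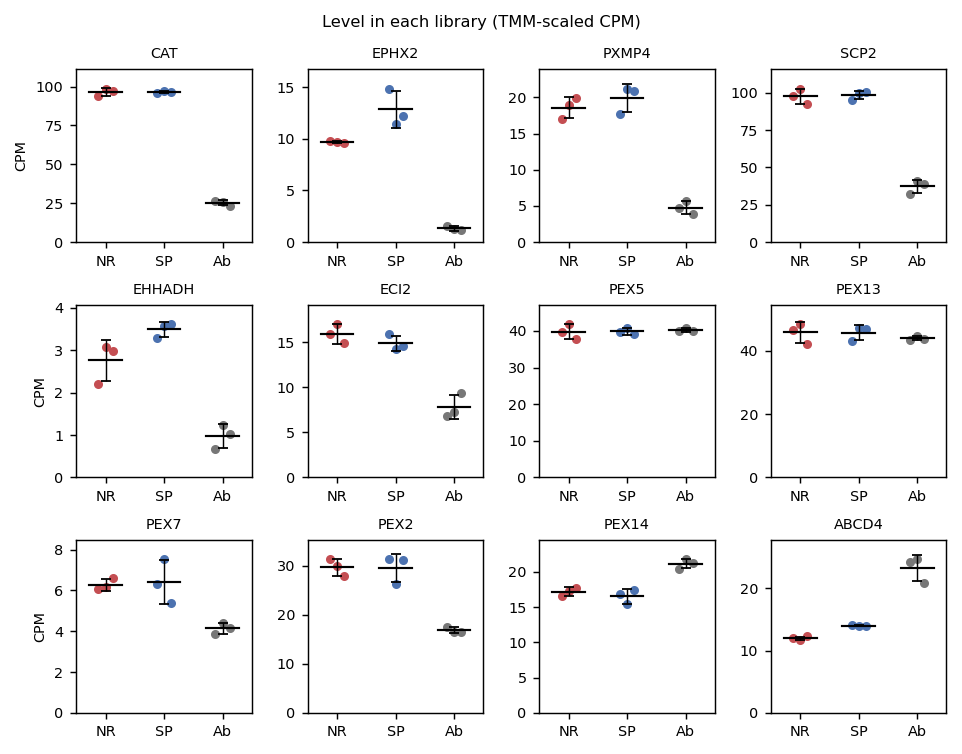
CPM in each library (y axis from 0, with TMM scaling) for 12 of the genes, with points for libraries, a line for the group mean and bars of 1 SD (n = 3). CAT, EPHX2, PXMP4, SCP2, EHHADH and ECI2 stand higher in NR and SP than in Ab, PEX7 and PEX2 show a smaller rise, PEX5 and PEX13 are level, and PEX14 and ABCD4 are lower.

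The enzymes of β-oxidation, the cycle that shortens very long and branched fatty acids, included several of the larger changes. Of 9 genes, 8 were tested in each comparison, and 7 of them rose in each and 0 fell, where 36.4% of all genes rose in each comparison. Their median log2 fold change was 0.93 with NR and 0.96 with SP. SCP2, the thiolase for branched chains and bile acid intermediates, was at 32.3, 41.1 and 38.6 CPM in Ab, 97.4, 103 and 92.7 in NR and 95.3, 100 and 100 in SP. All gold-treated libraries were above 2 times the highest Ab library, and SCP2 rose by 1.38 ± 0.072 log2 (adjusted p = 1.8e-13) and 1.40 ± 0.071 (adjusted p = 1.8e-15). HSD17B4, the bifunctional enzyme of the D-stereospecific route, was at 90.7, 101 and 101 CPM in Ab, 178, 187 and 182 in NR and 181, 175 and 184 in SP, and rose by 0.90 ± 0.050 (adjusted p = 2.3e-15) and 0.89 ± 0.052 (adjusted p = 1.1e-14). EHHADH, the bifunctional enzyme of the L-stereospecific route, was scarcer, with 13, 32 and 21 counts in Ab, 57, 43 and 48 in NR and 72, 83 and 75 in SP. It rose by 1.44 ± 0.26 (adjusted p = 1.9e-05) and 1.82 ± 0.24 (adjusted p = 1.1e-07).

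The other β-oxidation genes followed with smaller or less certain changes. ECI2, an isomerase for unsaturated chains, was at 6.86, 7.32 and 9.35 CPM in Ab, 15.9, 17.1 and 14.9 in NR and 15.9, 14.2 and 14.6 in SP. It stood on the edge of the 2-fold rule, with 2.04-fold in NR (1.03 ± 0.12, adjusted p = 7.3e-09) and 1.91-fold in SP (0.93 ± 0.12, adjusted p = 4.4e-08), so that it was called in 1 comparison and not in the other. ACAA1, the thiolase for straight chains, rose 1.92-fold and 1.99-fold, and DECR2, a reductase for unsaturated chains, 1.46-fold and 1.54-fold. AMACR, the racemase that readies branched chains, had 18, 21 and 7 counts in Ab, 27, 14 and 32 in NR and 33, 33 and 47 in SP. It rose by 1.31 ± 0.33 with SP (adjusted p = 0.00099). With NR it passed narrowly (0.93 ± 0.36, adjusted p = 0.025), and not without NR replicate 3 (adjusted p = 0.24) or Ab replicate 3 (adjusted p = 0.13). A readthrough transcript that joins it to C1QTNF3 and another annotated gene share 72.3% of its exon bases, so its reads may be split or dropped. ACOX3, an oxidase for branched chains, did not pass (0.12 and 0.10). ACOX2, the oxidase of bile acid intermediates, had 0 counts in the 3 Ab libraries, 3, 2 and 3 in NR and 4, 5 and 2 in SP, too few for a test. A count of 0 allows up to 3, so no fold is given.

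The enzymes of acyl-CoA and carnitine ester handling that could be tested, 4 of 5 with NR and 5 of 5 with SP, rose, where 36.4% of all genes rose in each comparison. CRAT, carnitine acetyltransferase, was at 42.2, 36.8 and 34.5 CPM in Ab, 70.2, 74.8 and 71.7 in NR and 75.2, 69.7 and 73.4 in SP, a rise of 0.94 ± 0.066 (adjusted p = 4.2e-13) and 0.95 ± 0.069 (adjusted p = 8.8e-13). CROT, which makes carnitine esters of medium-chain products for export, was at 5.36, 6.71 and 6.63 CPM in Ab, 11.2, 10.6 and 12.7 in NR and 12.4, 13.6 and 11.8 in SP. It rose 1.84-fold with NR (adjusted p = 6.2e-07) and 2.02-fold with SP (adjusted p = 2.2e-08). NUDT7, which cleaves coenzyme A and its esters, had 3, 3 and 4 counts in Ab, 30, 11 and 6 in NR and 26, 26 and 20 in SP. It could not be tested with NR, and rose by 2.81 ± 0.45 with SP (adjusted p = 2.7e-06). NUDT7, DDO and PXMP2 had fewer than 10 counts in at least 2 Ab libraries and entered the test through their gold-treated libraries, so a gene of this kind had to be higher there to be counted. NUDT12, which acts on NADH, rose by 0.47 and 0.43, and MLYCD, malonyl-CoA decarboxylase, by 0.36 and 0.40.

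The genes of α-oxidation and of ether lipid synthesis changed little. PHYH, the hydroxylase that starts the breakdown of phytanic acid, was at 32.3, 33.4 and 30.8 CPM in Ab, 38.2, 35.8 and 37.5 in NR and 38.2, 35.0 and 38.0 in SP. It rose by 0.21 ± 0.068 with NR (adjusted p = 0.0065) and 0.21 ± 0.069 with SP (adjusted p = 0.0082), the latter not without Ab replicate 3 (adjusted p = 0.055). HACL1, the next lyase of that path, did not pass (0.04 and 0.15). In ether lipid synthesis the members went different ways. GNPAT was at 83.8, 84.0 and 86.2 CPM in Ab, 102, 102 and 98.0 in NR and 97.4, 93.7 and 97.8 in SP, and rose by 0.25 ± 0.050 (adjusted p = 5.3e-05) and 0.19 ± 0.053 (adjusted p = 0.0020). AGPS, the enzyme that forms the ether bond in the step after GNPAT, was lower, at 133, 133 and 137 CPM in NR and 134, 143 and 135 in SP against 147, 164 and 163 in Ab. It fell by 0.24 ± 0.049 (adjusted p = 0.00011) and 0.20 ± 0.052 (adjusted p = 0.0014), and was the only enzyme tested that fell. FAR1, which supplies the fatty alcohol, did not pass (-0.05 and 0.10).

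The last group joins catalase with the amino acid oxidases, an epoxide hydrolase and IDH1. EPHX2, the soluble epoxide hydrolase, which opens fatty acid epoxides, had the largest change of all members in NR and in SP. It was at 1.56, 1.26 and 1.16 CPM in Ab, 9.78, 9.68 and 9.60 in NR and 14.9, 11.5 and 12.2 in SP. The 3 groups formed 3 separate ranges. EPHX2 rose 7.32-fold with NR (2.87 ± 0.17 log2, adjusted p = 1.0e-14) and 9.74-fold with SP (3.28 ± 0.17, adjusted p = 4.7e-16). DDO, D-aspartate oxidase, had 3, 8 and 3 counts in Ab, 34, 5 and 10 in NR and 16, 16 and 13 in SP, was not tested with NR and rose by 1.68 ± 0.47 with SP (adjusted p = 0.0023). PIPOX, an oxidase of pipecolic acid and sarcosine, had at most 10 counts in any library and was tested in no comparison. IDH1 had the highest level of all and changed little, with 203, 203 and 208 CPM in Ab, 218, 218 and 215 in NR and 187, 204 and 212 in SP. Neither change passed, at 0.09 ± 0.043 log2 with NR (adjusted p = 0.067) and -0.02 ± 0.049 with SP (adjusted p = 0.79).

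Summed over the class, the peroxins stood at 323.6 ± 5.81 CPM in Ab, 361.6 ± 6.73 in NR and 372.2 ± 11.9 in SP (SD, n = 3), or 1.117 and 1.15 times the Ab level. The enzymes stood at 871.3 ± 24.7, 1188 ± 18.0 and 1187 ± 12.4 CPM, or 1.36 times in both. The summed CPM of the enzymes, which counts reads and not molecules, was 2.55, 2.75 and 2.78 times that of the peroxins in the Ab libraries, 3.24, 3.31 and 3.32 times in NR and 3.05, 3.25 and 3.27 times in SP. Per exon length, the summed RPKM gave 1.91, 2.01 and 2.04 times in Ab, 2.498, 2.541 and 2.509 in NR and 2.33, 2.45 and 2.47 in SP. On neither scale did gold-treated and Ab libraries overlap. A few abundant genes carried most of the enzyme difference. HSD17B4, CAT, SCP2 and CRAT together made up 79.0% of it in NR and 79.1% in SP, and without CAT the ratio to Ab was 1.29 in both. These sums are descriptions of chosen lists, and no test was run on them.

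**Figure D3:**
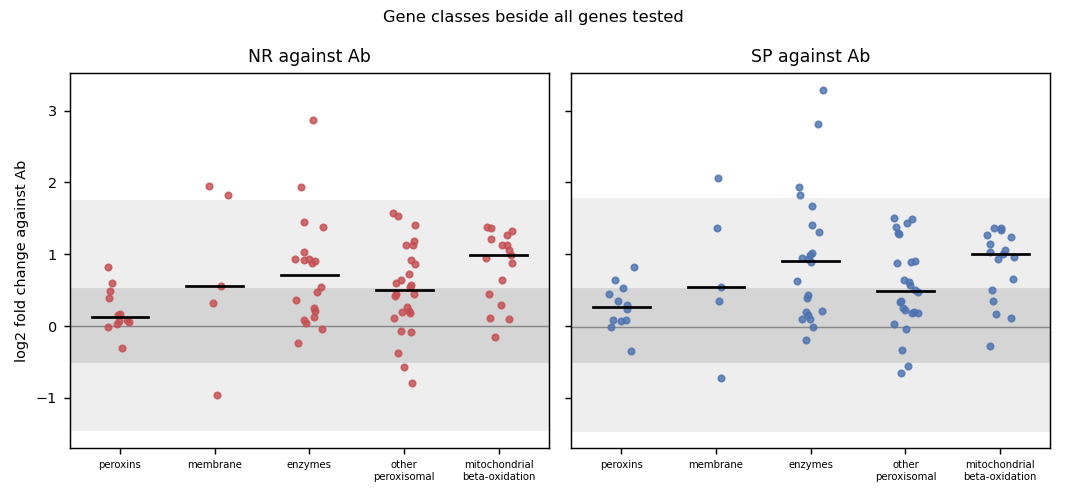
Log2 fold change against Ab (y axis) of each gene tested, by class, for NR (left) and SP (right), with a line at the class median. The dark band spans the middle 50% and the light band the middle 90% of all genes tested. The peroxins lie mostly inside the dark band, and the enzymes and the genes of mitochondrial β-oxidation mostly above 0.

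Other genes of the organelle and of neighbouring pathways were read from 3 further lists. Of 34 other peroxisomal genes, 26 were tested, of which 20 rose and 3 fell with NR and 19 rose and 3 fell with SP, and 6 were called higher in each, beside 36.4% rising in each comparison and 12.4% and 12.6% called higher among all genes. The median was 0.50 and 0.49. The called genes were SLC27A2, a fatty acid transporter and acyl-CoA synthetase (1.57 ± 0.061 and 1.44 ± 0.063), GSTK1, a glutathione transferase of mitochondria and peroxisomes (1.53 and 1.51), PECR, a reductase of chain elongation (1.40 and 1.28), PEX11G, of organelle division (2.27-fold and 2.82-fold), ACBD4, a tether to the endoplasmic reticulum (2.18-fold and 2.45-fold), and PAOX, a polyamine oxidase (1.13 and 1.38). PEX11G was the 1 peroxin past 2-fold on either list. TMEM135 rose by 0.93 and 0.88. The genes that fell were TYSND1, the protease that trims imported enzymes (-0.37 and -0.33), MPV17L (-0.57 and -0.55) and FAR2 (-0.79 and -0.65). Another 3 genes did not pass with NR and 4 with SP. Of 8 factors of fission and turnover, 3 rose and 3 fell in each comparison, a share of passing genes near the 72.7% and 73.0% of all genes. USP30, a deubiquitinase that restrains the removal of mitochondria and peroxisomes by autophagy, was called (1.11 ± 0.12 and 1.15 ± 0.12), while SQSTM1, an autophagy receptor, fell by 0.53 and 0.54, and TRIM37, a ligase that stabilises PEX5, by 0.37 and 0.38. Genes of mitochondrial β-oxidation rose in both comparisons as well. Of 19 genes, 17 were tested, of which 16 rose and 1 (ECI1) fell in each comparison (36.4% of all genes rose in each), 8 were called higher in each (12.4% and 12.6% of all genes), and the medians were 0.983 and 0.997. Called in both were the hydratase ECHS1 (1.27 and 1.25), HADHA of the trifunctional protein (1.13 and 1.14), the dehydrogenase genes HADH (1.13 and 1.06) and ACADS (1.32 and 1.37), the reductase DECR1 (1.37 and 1.34), the electron carrier ETFB (1.37 and 1.27) and the carnitine carrier SLC25A20 (1.21 and 1.37). ETFDH was called with NR (1.05) and CPT2 with SP (1.03), and each fell just short in the other comparison.

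Between nanorods and nanospheres, no member passed the test. In NR against SP, 39 were tested and 0 passed by edgeR, where 0.443% of all genes did (0.0201% at 2-fold), and 0 of the 10 for which DESeq2 gave an adjusted p passed by that tool, which gave none for the other 29, EPHX2 among them. At an unadjusted p under 0.05 there were 4 of 39 (EPHX2, FAR1, IDH1 and ABCD4), where all genes gave 12.9%. The libraries of the 2 groups did not overlap for 7 of the 39, where all genes gave 17.8%. The median was -0.04 for the peroxins and -0.03 for the enzymes. Leaving out a library gave -0.072 to -0.021 and -0.043 to -0.020. For 33 of the 39 genes, all 12 peroxins among them, the 95% interval of the difference lay within 0.5 log2 either way, which bounds the difference. The interval for CAT was -0.09 to 0.09, for SCP2 -0.11 to 0.08 and for PEX5 -0.12 to 0.11. The intervals for NUDT7 (-1.12 to 0.28), DDO (-0.50 to 1.08), AMACR (-0.97 to 0.21), EHHADH (-0.76 to 0.01) and PXMP2 (-0.07 to 1.01), all with low counts, did not exclude larger differences. EPHX2 came nearest to passing, at 9.60 to 9.78 CPM in NR and 11.5 to 14.9 in SP. The difference was -0.41 ± 0.11 log2, with a 95% interval of -0.63 to -0.19 and an adjusted p of 0.091.

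**Figure D4:**
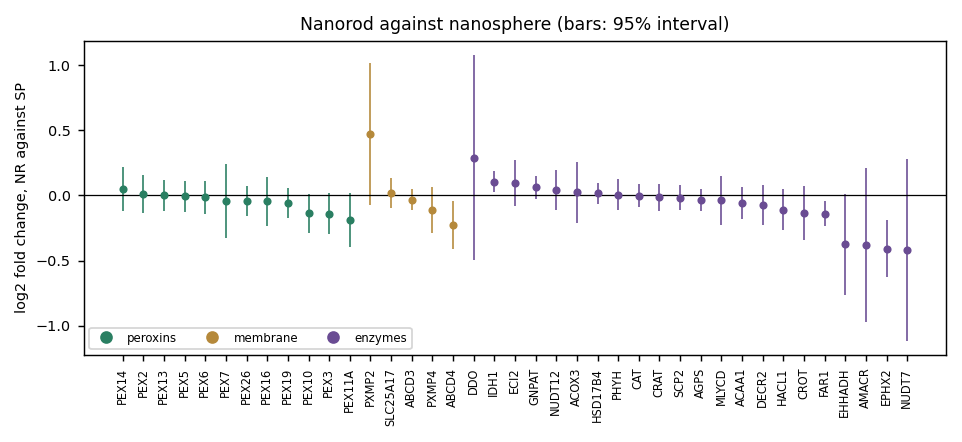
Log2 fold change of NR against SP (y axis) for the 39 genes tested, by class and ordered by value, with bars for the 95% interval. Points above 0 are higher with nanorods. The peroxins sit within 0.19 of 0, and the widest bars belong to genes with few counts such as PXMP2, DDO, AMACR and NUDT7.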

How the data were processed

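Poly-A RNA of SNU5 cells was sequenced in 9 libraries, 3 per group. The files hold unscaled whole-number counts for each Ensembl gene ID, which the authors made by removing adapter and low-quality reads, aligning with HISAT2 2.1.0 and counting per gene. The study's text names hg19, whereas the submitters' processing notes name mm9. The gene IDs are human, and hg19 (GRCh37) was taken as the build. The annotation release and the strand setting are not given in the sources used here, so overlapping genes on either strand cannot be told apart. The notes also name DESeq2 1.16.1, whose output was not used here.

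The 41 genes and the other lists were chosen with earlier results of these data known. Version suffixes of IDs were removed, and 59858 of 60880 IDs were found in GENCODE release 44 lifted to GRCh37, which gave exon lengths. Groups were compared in pairs, 6 libraries to a fit, in R 4.3.3 with edgeR 4.0.16, using TMM factors, filterByExpr (minimum count 10, minimum total count 15), the robust quasi-likelihood test and Benjamini-Hochberg adjustment over all genes. Values are printed as log2 fold change ± SE, and 95% intervals come from the SE and the normal distribution. CPM used TMM factors over all libraries, and 3 counts were taken as the limit that a count of 0 allows, 0.114 to 0.216 CPM across libraries, for counting error only. The study calls its replicates biological and its in vitro experiments independent repeats, but the sample labels do not say how the 3 libraries of a group were grown, so p-values measure the spread between these libraries. All replicate pairs differed by more than sampling noise. The scripts were tested on simulated data.

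Named genes were PEX5, PEX7, CAT, each gene called against Ab or passing NR against SP, the gene with the smallest adjusted p in each role, and the 5 highest in RPKM. In the other lists they were the called genes and the 3 of smallest adjusted p. All others were named after their values were seen. Alternatives were DESeq2 1.42.0, other scaling factors, other count filters, 1 fit over all libraries, glmTreat, another fold minimum, a replicate block and leaving out each library. Protein features were not analysed here. RefSeq promoters were searched on both strands.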

Additional observations from a re-analysis of the deposited data

How the results depend on the processing

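Across the scaling, filter, tool and leave-one-out alternatives, no listed gene that passed against Ab changed direction. Changes near 0 that did not pass could change sign, as for FAR1 with NR (-0.091 to 0.026 log2). The counts of genes past the adjusted p stayed within 22 to 27 higher and 3 lower with NR when a library was left out or DESeq2 was used. At a 1.5-fold minimum, 14 were higher and 1 lower with NR, and 17 higher and 1 lower with SP. With NR, 0 to 1 were called lower and 8 to 10 higher when a library was left out, ABCD4 being called without Ab replicate 3. The count filter asks for fewer libraries there, and why these counts exceed 7 was not tested. When every library had to hold 10 counts, 6 were called higher with NR and 5 with SP. When glmTreat tested against 2-fold, 5 were called higher with NR and 6 with SP. The peroxin median with NR was 0.19 with upper quartile factors, 0.15 with library totals, 0.10 with 10 counts in every library and 0.087 to 0.181 leaving out a library (0.18 without Ab replicate 1), so its size rests on the scaling and on single libraries. The enzyme median with NR was 0.88 with no filter, 0.52 with 10 counts in every library and 0.58 to 0.89 leaving out a library. With SP, upper quartile factors gave 0.33 for peroxins and 0.98 for enzymes, 10 counts in every library gave 0.60 for enzymes, and leaving out a library gave 0.84 to 0.92. In NR against SP, 1 gene passed with no filter (EPHX2, lower), and leaving out a library gave medians of -0.072 to -0.021 for peroxins and -0.043 to -0.020 for enzymes. Single genes changed side of the threshold in 4 cases with NR, 7 with SP and 1 between NR and SP.

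Deviations of same-numbered libraries from their group means correlated at -0.10 to 0.00 (NR and Ab), 0.03 to 0.04 (SP and Ab) and -0.02 to 0.00 (NR and SP). Libraries of different number gave -0.066 to 0.12, -0.030 to -0.0027 and -0.012 to 0.022. With 3 libraries in a group, these values cannot decide whether the replicate numbers pair the libraries. With the number as a replicate block, 22 genes rose and 3 fell with NR, 28 rose and 3 fell with SP, and 0 passed between NR and SP, AMACR with NR being the gene lost (adjusted p = 0.064). AMACR was also lost by DESeq2 (adjusted p = 0.060). Genes under about 10 counts a library limit what can be seen: ACOX2 and PIPOX were not tested, and NUDT7 and DDO were not with NR.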
